A study of Mus musculus with 2 samples.

Results

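The genes described here are 10 genes of water, salt and osmolyte handling in the mouse corneal epithelium: Nfat5, Sgk1, Slc5a3, Slc6a6, Slc38a2, Akr1b3, Hspa4l, Aqp3, Aqp5 and Fxyd4. They were chosen by name, all 10 were present among the 17891 genes of the deposited count table, and all 10 passed the minimum of 100 unique molecular identifiers (UMIs) over both libraries. The choice was made with values of these libraries known, so every level and ratio below is a description and none is a test. Each group had 1 library, which leaves no replicates to test a difference against.

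Tears evaporate from the surface of the eye, and when the lacrimal glands fail the remaining tear film becomes more concentrated in salt. Epithelial cells that face hypertonic fluid lose water, and they are known to respond by taking up or making small organic osmolytes such as taurine, myo-inositol, neutral amino acids and sorbitol, largely through genes driven by the transcription factor Nfat5. Water crosses the corneal epithelium through aquaporins, and the sodium pump, whose activity is tuned by small FXYD proteins, maintains the ion gradients that the transporters use.

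The data were single-cell transcriptomes of corneal epithelium from 7 male C57BL/6J mice aged 10 weeks, in which the extra- and intra-orbital lacrimal glands of the right side had been removed 9 days earlier. The control library pooled the 7 left eyes, and the dry eye library pooled 6 right eyes after an injured eye was left out. The same animals gave both pools, the control eyes came from operated animals, and the side of the eye cannot be told apart from the treatment. Libraries were made with the 10x Genomics 3' chemistry after the epithelium had been freed with an enzyme and dispersed with trypsin.

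The control library held 17465 cells and 191493194 UMIs, and the dry eye library 16420 cells and 207030777 UMIs, with 74 cell barcodes found in both. Levels are given as CPM, the count of a gene scaled to the total UMIs of a library or of a class of cells in it. A ratio is dry eye over control CPM, and the exact 95% interval in parentheses after it takes in counting error and no other source of error. Cells carry 1 of 13 class names of the authors' annotation, which are used as given: LSC, Basal, TAC1, TAC2, Wing, Squam, Conj, Immune, and 5 names with an asterisk whose meaning is not stated. Among the 10 leading genes of each class, none was a marker of another cell type, and 8 classes held markers of their own, while Basal, LSC*, TAC2*, Wing* and Squam* held 0. Starred cells made up 0.985% of control and 10.9% of dry eye cells. Wing cells were 32.4% of control and 20.6% of dry eye cells. Marker sums for limbal cells were 7584 CPM in control and 10696 CPM in dry eye, and those for S phase 211 and 322 CPM, and their part in the values below was not tested. In sums over all cells, a different mix of classes and a different level per cell cannot be told apart, and the values within classes are therefore given as well.

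Promoter sequences are shown for 3 of the 10 genes, to set the letters upstream of a water channel (Aqp3) beside those of the regulator Nfat5 and of a start of Sgk1 that holds both TGGAAA and AGAACA. They are the 250 bases before a start site in RefSeq, build GRCm38.p6, on the strand of the gene, and none of these bases lies in an annotated exon. Capitals mark the motifs searched on both strands, namely TATAAA, the box that places many transcription starts, GGGCGG, the box bound by Sp1 proteins, TGGAAA, the core of the tonicity element bound by Nfat5, and AGAACA, the repeat unit of the glucocorticoid response element. None of the marked motifs overlaps another.
Nfat5 (chr8:107293220-107293469, plus strand): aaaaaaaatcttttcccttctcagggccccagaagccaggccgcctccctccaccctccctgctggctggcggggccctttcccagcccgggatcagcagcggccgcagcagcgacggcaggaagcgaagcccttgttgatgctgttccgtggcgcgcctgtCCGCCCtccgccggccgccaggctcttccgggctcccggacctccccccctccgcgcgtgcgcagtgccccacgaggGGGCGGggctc
Sgk1 (chr10:21993640-21993889, plus strand): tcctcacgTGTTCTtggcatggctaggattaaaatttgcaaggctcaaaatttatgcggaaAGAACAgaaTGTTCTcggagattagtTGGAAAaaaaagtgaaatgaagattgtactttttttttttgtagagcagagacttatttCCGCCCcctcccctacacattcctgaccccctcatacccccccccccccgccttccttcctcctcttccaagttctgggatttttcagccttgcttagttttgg
Aqp3 (chr4:41098184-41098433, minus strand): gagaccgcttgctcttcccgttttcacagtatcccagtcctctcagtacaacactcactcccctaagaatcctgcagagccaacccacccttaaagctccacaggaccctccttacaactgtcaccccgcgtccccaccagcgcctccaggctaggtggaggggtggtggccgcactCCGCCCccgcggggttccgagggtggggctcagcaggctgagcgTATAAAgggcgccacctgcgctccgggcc

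The Aqp3 sequence held TATAAA 29 bases before the start and GGGCGG on the other strand at 73 bases. In the Nfat5 window GGGCGG stood 11 bases before the start and, on the other strand, at 88 bases, and TATAAA was not found. Of the 250 bases, 71.6% were G or C for Nfat5, 64.0% for Aqp3 and 44.8% for Sgk1. The Sgk1 window held TGGAAA at 163 bases and AGAACA, on either strand, at 242, 189 and 180 bases, and GGGCGG on the other strand at 104 bases. Windows were found for 8 of the 10 genes, 13 in all, 6 of them for Sgk1, and TGGAAA occurred only in 2 of the Sgk1 windows. Over all 32851 windows of this length, 12.4% held TATAAA, 32.7% GGGCGG, 18.6% TGGAAA and 16.1% AGAACA on either strand. A match is a description of letters and not evidence of a site in use.

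Over all cells, Fxyd4 was the gene of the 10 with the lowest ratio, 0.390, and Hspa4l the gene with the highest, 1.96. A gene was counted as past the threshold when its ratio was at least 1.5 or at most the inverse of 1.5. Of the 10 genes, 1 was past it upward (Hspa4l) and 1 downward (Fxyd4), against 6.87% and 5.02% of the 13100 genes counted over all cells. Those shares are 900 genes higher and 657 lower, or 1042 and 477 with libraries scaled by the median of ratios in place of the total. The median log2 ratio of the 10 genes was -0.08, beside -0.07 over all genes counted. Nearest to the threshold without passing it were Slc5a3 at 1.37, Slc38a2 at 1.36 and Nfat5 at 0.760.

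**Figure D1:**
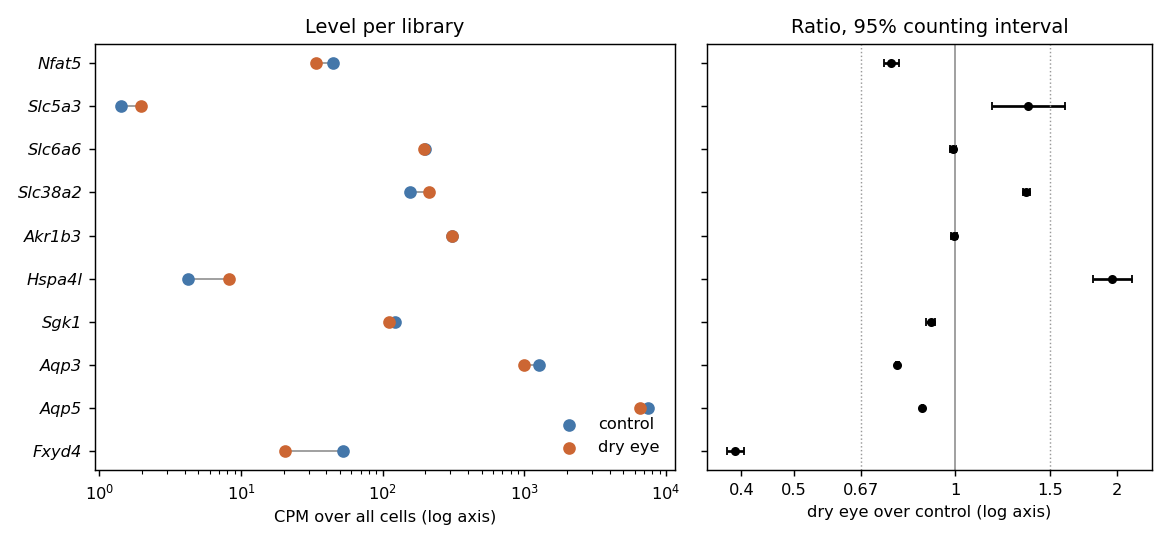
Level of each of the 10 genes over all cells in the control (blue) and dry eye (orange) library in CPM on a log axis (left), and the ratio of dry eye over control with its exact 95% counting interval on a log axis (right). Dotted lines mark the 1.5-fold threshold, which Hspa4l passes at 1.96 and Fxyd4 at 0.390, while the points of Slc6a6 and of Akr1b3 coincide.

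Nfat5, the transcription factor that switches on osmoprotective genes, lies at chr8:107293470-107379517 in mm10. It was at 44.2 CPM in control (8470 UMIs) and 33.6 CPM in dry eye (6963 UMIs), a ratio of 0.760 (0.737 to 0.785). Within classes the interval of the Nfat5 ratio lay below 1 in 7 of the 8 classes with at least 100 cells in each library, and it held 1 in Conj at 0.945 (0.843 to 1.06). In LSC cells Nfat5 was at 98.5 CPM (83.2 to 116) in control beside 60.7 CPM (53.5 to 68.5) in dry eye, and in Basal cells at 68.2 and 55.8 CPM. In Wing cells it stood at 42.3 and 34.9 CPM and in Squam cells at 27.5 and 20.1 CPM. The Nfat5 level thus went down from the basal to the surface classes in both libraries, and Squam over Basal was 0.403 (0.373 to 0.436) in the control and 0.360 (0.327 to 0.396) in the dry eye library. Neighbours in the control order from LSC through TAC1*, Basal and TAC1 to TAC2 had overlapping intervals, as did Squam and Conj. Counted as UMIs per cell, without scaling to the class total, Nfat5 was on the other side of 1 in Wing cells, at 1.03, and in Conj cells, at 1.02.

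Sgk1, a kinase induced by glucocorticoids and by cell shrinkage that acts on ion channels and transporters, lies at chr10:21882184-21999903. Its level was 122 CPM in control (23403 UMIs) and 110 CPM in dry eye (22761 UMIs), a ratio of 0.900 (0.883 to 0.916), and as UMIs per cell the ratio was 1.03. Among the classes with at least 100 cells of a library, Basal cells had the highest Sgk1 level in both, 163 CPM (158 to 168) in control and 152 CPM (147 to 158) in dry eye. Squam cells followed with 151 and 122 CPM, a ratio of 0.808 (0.775 to 0.841). Neighbouring intervals overlapped from Squam through TAC1*, TAC1 and TAC2 to LSC in control, and from Squam down to Wing in dry eye. The control TAC1* interval, 131 to 171 CPM, also overlapped that of Basal. In Wing cells the control and dry eye levels were 93.6 and 93.4 CPM, with a ratio of 0.998 (0.965 to 1.03). Sgk1 had an interval below 1 in 6 of 8 classes and an interval that held 1 in Wing and Conj. Of these 8 classes, TAC1* was the single class in which Sgk1 passed the threshold, at 0.518 (0.440 to 0.611).

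Slc5a3, the sodium-coupled importer of myo-inositol at chr16:92058322-92087473, was the gene with the fewest UMIs. It had 274 UMIs in control, 1.43 CPM, and 405 in dry eye, 1.96 CPM, a ratio of 1.37 (1.17 to 1.60). The gene lies within Mrps6, which is on the same strand and whose ratio was 1.24 (1.18 to 1.30), so the assignment of these reads is uncertain. In Squam cells Slc5a3 was at 0.838 CPM in control (29 UMIs) and 1.93 CPM in dry eye (67 UMIs), a ratio of 2.30 (1.47 to 3.69). In Wing cells the ratio was 1.55 (1.08 to 2.22), and the other 4 classes counted, LSC, Basal, TAC1 and TAC2, gave intervals that held 1. LSC cells had the highest level in either library, 9.31 CPM (5.09 to 15.6) in control and 8.67 CPM (6.10 to 11.9) in dry eye. The control level rests on 14 UMIs, and its interval overlapped those of TAC1* and TAC1.

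Slc6a6, the taurine transporter at chr6:91684053-91759066, was nearly level over all cells and steeply graded across the layers. It had 197 CPM in control (37782 UMIs) and 195 CPM in dry eye (40390 UMIs), a ratio of 0.989 (0.975 to 1.003). In the control library its level was 734 CPM in LSC, 603 in TAC1*, 583 in TAC1, 580 in Basal, 485 in TAC2, 81.5 in Wing, 66.5 in Conj and 12.0 in Squam cells. In the dry eye library it was 776 CPM in LSC, 600 in Basal, 533 in TAC1, 425 in TAC2, 247 in TAC1*, 194 in TAC2*, 83.2 in Conj, 83.0 in Wing, 60.0 in Wing*, 24.5 in Squam* and 10.0 in Squam cells. Intervals of neighbours overlapped for TAC1*, TAC1 and Basal in control and for Conj and Wing in dry eye, and for no other neighbours. Squam cells thus had 0.0206 times the Basal level (0.0187 to 0.0228) in control, beside 0.0166 times (0.0149 to 0.0185) in dry eye. After each cell was thinned to 3000 UMIs, a Slc6a6 UMI was found in 74.4% of control and 76.1% of dry eye Basal cells, beside 3.31% and 2.35% of Squam cells. Over the 8 classes compared, ratios of Slc6a6 ranged from 0.409 in TAC1* to 1.25 (1.17 to 1.34) in Conj, with intervals below 1 in 4 classes, above 1 in 2 and holding 1 in LSC and Wing.

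Slc38a2, a sodium-coupled importer of neutral amino acids at chr15:96687392-96699730 that is known to be induced both by hypertonicity and by lack of amino acids, was higher in dry eye chiefly in the upper layers. Over all cells it had 156 CPM in control (29848 UMIs) and 211 CPM in dry eye (43737 UMIs), a ratio of 1.36 (1.34 to 1.38). With the lowest class level subtracted in each library, that ratio was 1.12. In Squam cells the control level of 31.4 CPM (29.6 to 33.4) stood against 78.2 CPM (75.3 to 81.2) in dry eye, a ratio of 2.49 (2.32 to 2.67). Squam had the lowest Slc38a2 level of the classes in both libraries, and the part of free RNA in its ratio was not tested. Wing cells had 108 and 176 CPM, which gave 1.62 (1.58 to 1.67). Basal, TAC1 and TAC2 cells had ratios of 1.07, 1.09 and 1.06, all with intervals above 1, and LSC, Conj and TAC1* had intervals that held 1. The share of thinned cells with a Slc38a2 UMI was 7.80% (6.86 to 8.82) among Squam cells of control, beside 16.9% (15.6 to 18.4) among those of dry eye, and 23.9% and 36.7% among Wing cells. In Basal cells it was 62.2% and 65.3%. As with Slc6a6, Slc38a2 was lower toward the surface, and Squam over Basal stood at 0.0827 (0.0776 to 0.0880) in control against 0.192 (0.184 to 0.201) in dry eye.

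Akr1b3, aldose reductase, which makes sorbitol from glucose, lies at chr6:34302434-34317478 and overlaps the antisense gene Gm14546. It had 310 CPM in control (59347 UMIs) and 308 CPM in dry eye (63769 UMIs), a ratio of 0.994 (0.983 to 1.01). Unlike Slc6a6, it was higher in Conj, Wing and Squam cells than in the basal classes. In control the Akr1b3 level was 500 CPM in Conj, 375 in Wing, 289 in Squam, 160 in TAC1*, 149 in Basal, 143 in TAC2, 133 in TAC1 and 122 in LSC cells, and the last 5 had overlapping intervals from neighbour to neighbour. The quotient of Wing over Basal was 2.52 (2.44 to 2.60) in control, and 2.51 (2.42 to 2.61) was the dry eye value. None of the 8 classes compared passed the threshold for Akr1b3, and the ratios lay between 0.861 (0.838 to 0.884) in Conj and 1.17 (1.11 to 1.24) in TAC2.

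Hspa4l, a chaperone of the Hsp110 family first known as an osmotic stress protein, lies at chr3:40744495-40796103. It had 4.22 CPM in control (808 UMIs) and 8.26 CPM in dry eye (1711 UMIs), a ratio of 1.96 (1.80 to 2.13). Starred classes held a large part of that difference: without them the ratio was 1.52, and with the dry eye class levels weighted to the control mix of classes it was 1.46, which is below the threshold. Within classes Hspa4l had an interval above 1 in LSC at 1.76 (1.02 to 3.23), TAC2 at 1.28 (1.06 to 1.55), Wing at 1.59 (1.38 to 1.84), Conj at 1.69 (1.21 to 2.39) and TAC1* at 6.19 (2.35 to 23.1). The TAC1* value rests on 4 control and 105 dry eye UMIs, and the LSC value on 16 and 80. In Basal and TAC1 cells the interval held 1, at 1.14 and 1.39. Squam cells had 14 and 16 Hspa4l UMIs, too few to be counted, and the lowest Hspa4l level among the classes with at least 100 cells of a library, 0.405 and 0.460 CPM.

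Aqp3, a channel for water and glycerol at chr4:41092722-41098183, was lower in dry eye in all 8 classes when scaled to the class total. Over all cells its level was 1267 CPM in control (242554 UMIs) and 987 CPM in dry eye (204344 UMIs), a ratio of 0.779 (0.775 to 0.784). Squam cells had 769 CPM (759 to 778) in control, against 443 CPM (436 to 450) in dry eye, a ratio of 0.577 (0.565 to 0.588), and in LSC cells 1252 and 822 CPM gave 0.657 (0.621 to 0.695). The ratio was 0.884 in Basal, 0.895 in TAC1, 0.928 in TAC2, 0.884 in Wing and 0.819 in Conj cells, and lowest in TAC1* cells at 0.526. Wing cells had the highest Aqp3 level in both libraries, 1549 CPM (1540 to 1557) and 1370 CPM (1360 to 1379), followed by Conj. As UMIs per cell, Aqp3 went from 23.1 to 25.4 in Wing cells, the other direction, and TAC1 and TAC2 were also above 1, at 1.01 and 1.10. Aqp3 in Squam cells was 0.496 times (0.490 to 0.503) its Wing level in control, and in dry eye 0.324 times (0.318 to 0.329).

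Aqp5, a water channel of glands and of the corneal epithelium at chr15:99590782-99594829, was close to level in most classes and lower in LSC and TAC1* cells. It had 7484 CPM in control (1433054 UMIs) and 6490 CPM in dry eye (1343589 UMIs), a ratio of 0.867 (0.865 to 0.869), and as UMIs per cell 82.1 and 81.8, a ratio of 0.997. The Aqp5 level in control was 11811 CPM in Squam, 9059 in Wing, 5735 in Conj, 2992 in Basal, 2927 in TAC1*, 2645 in TAC2, 2348 in TAC1 and 1221 in LSC cells, and among neighbours the intervals of Basal and TAC1* overlapped. In the unstarred dry eye classes it was 11280 CPM in Squam, 8941 in Wing, 5429 in Conj, 2736 in TAC2, 2730 in Basal, 2268 in TAC1 and 565 in LSC cells. The ratio in LSC cells was 0.463 (0.435 to 0.492), and 0.764 when LSC* cells were added to the LSC class. LSC* had 6 control and 85 dry eye cells, and its dry eye Aqp5 level was 2072 CPM. Outside LSC and TAC1*, Aqp5 ratios lay between 0.913 in Basal and 1.03 in TAC2 cells. Immune cells, which should lack Aqp5, had 11 UMIs in 20 control cells and 47 in 31 dry eye cells, a measure of RNA from other cells, which was not subtracted here. The neighbouring gene Aqp2 (chr15:99579055-99584547) had 8.63 CPM in control and 8.73 CPM in dry eye, a ratio of 1.01 (0.946 to 1.08).

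Fxyd4, a small membrane protein that raises the affinity of the sodium pump for sodium, lies at chr6:117933559-117937692. It was at 52.0 CPM in control (9964 UMIs) and 20.3 CPM in dry eye (4197 UMIs), and its ratio of 0.390 (0.376 to 0.404) ranked it 32 from the lowest ratio among 13100 genes. In control the Fxyd4 level was 73.9 CPM (72.1 to 75.8) in Wing, 50.2 in TAC1, 45.2 in Squam, 34.0 in Basal, 28.4 in TAC1*, 22.9 in Conj, 22.3 in TAC2 and 8.65 in LSC cells. In the unstarred dry eye classes it was 34.4 CPM (33.0 to 35.9) in Wing, 26.3 in Squam, 16.1 in Basal, 13.9 in TAC1, 12.5 in Conj, 7.88 in TAC2 and 2.58 in LSC cells. In the 8 classes compared, no dry eye interval reached that of the same class in control, with the exception of LSC, whose counts were 13 and 11 UMIs. Neighbouring classes overlapped for TAC1 with Squam and from Basal through TAC1* and Conj to TAC2 in control, and in dry eye for Basal with TAC1 and TAC1 with Conj. The ratio was 0.277 (0.228 to 0.334) in TAC1, 0.353 (0.288 to 0.431) in TAC2, 0.466 (0.443 to 0.489) in Wing, 0.474 (0.416 to 0.539) in Basal, 0.547 (0.474 to 0.632) in Conj and 0.583 (0.537 to 0.633) in Squam cells. The lowest ratio, 0.161, was in TAC1* cells, on 41 control and 28 dry eye UMIs. Wing cells held 62.6% of the control Fxyd4 UMIs and 51.5% of those in dry eye, and without Wing cells the ratio over all cells was 0.405. With the dry eye class levels weighted to the control mix of classes it was 0.476.

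Counted by cells, a Fxyd4 UMI was found after thinning in 1956 of 16371 control cells, 11.9% (11.5 to 12.5), and in 765 of 15636 dry eye cells, 4.89% (4.56 to 5.24). Without thinning the shares were 30.0% and 15.4%. Among Wing cells the thinned shares were 18.7% (17.6 to 19.7) and 8.42% (7.49 to 9.42), in cells with median depths before thinning of 10974 and 12173 UMIs. LSC cells, the class with the lowest share among the 8 compared, had 2.16% (0.592 to 5.44) and 1.02% (0.333 to 2.37), at medians of 6133 and 6417.5 UMIs.

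**Figure D2:**
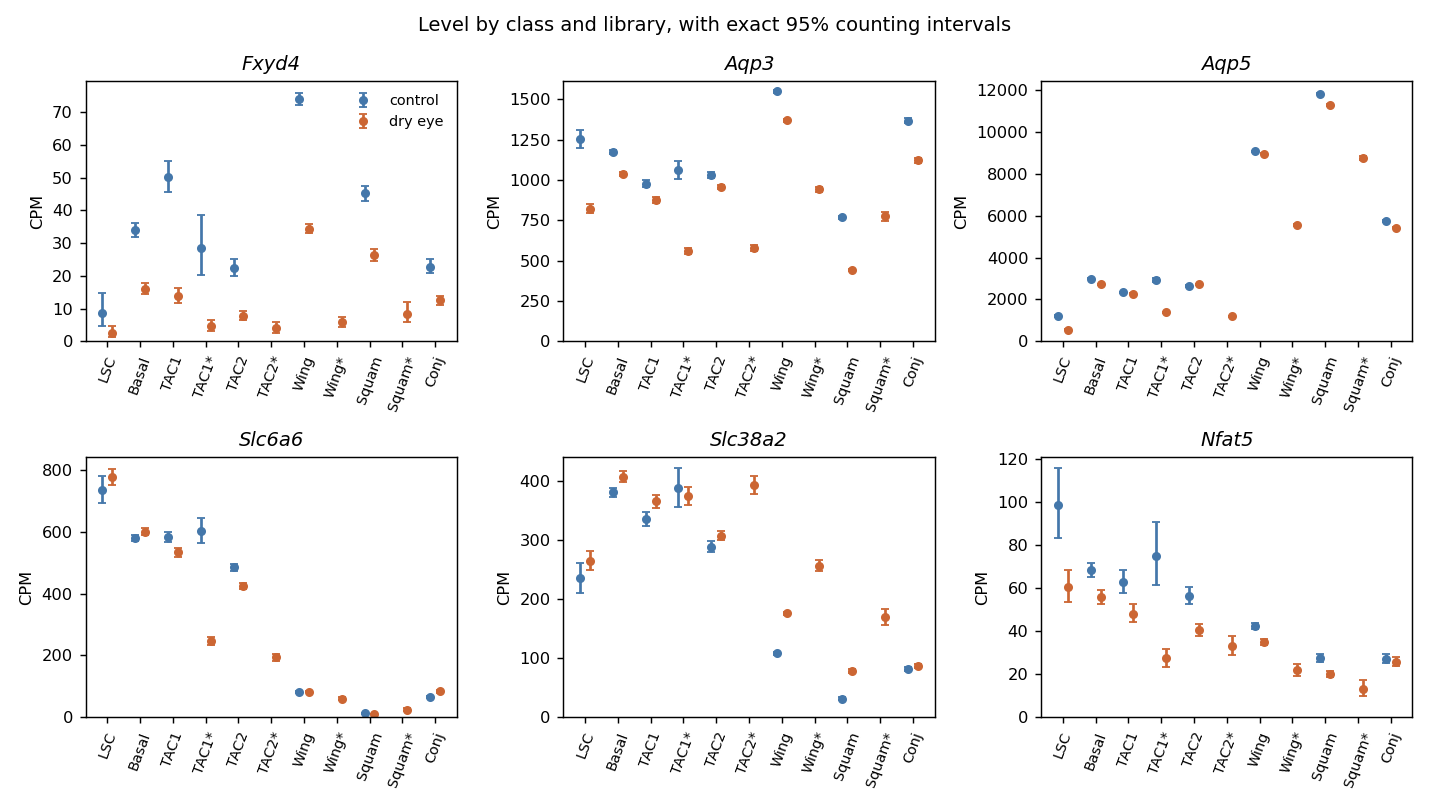
Levels of Fxyd4, Aqp3, Aqp5, Slc6a6, Slc38a2 and Nfat5 by class in CPM, for control (blue) and dry eye (orange), with exact 95% counting intervals. Control values of TAC2*, Wing* and Squam* are not drawn because these classes held 21, 12 and 0 control cells, and LSC* is not drawn. Slc6a6 is high in LSC, Basal and TAC classes and Aqp5 in Squam and Wing.

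Across classes, 76 pairs of a gene and a class had at least 50 UMIs in a class with at least 100 cells in each library. Of these pairs, 8 were past 1.5-fold upward and 16 downward. The median log2 ratio over all genes counted in a class was itself -0.20 in Squam, -0.14 in Wing and -0.06 in LSC cells, and at most 0.04, in TAC1*, so a ratio slightly below 1 in those classes is near the class median. The same medians over the genes described here were -0.26, -0.01, -0.10 and -0.95. In Basal, TAC1 and TAC2 cells Fxyd4, lower, was the 1 gene of 10 past the threshold, where 4.86%, 4.64% and 7.46% of all genes counted in those classes passed it in either direction. In Wing cells 4 of 10 passed it, Slc5a3, Slc38a2 and Hspa4l higher and Fxyd4 lower, where 11.4% of genes did. Squam cells had 4 of 9, Slc5a3 and Slc38a2 higher and Aqp3 and Fxyd4 lower, where 18.4% of genes did. LSC cells had 4 of 9, Hspa4l higher and Nfat5, Aqp3 and Aqp5 lower, where the share was 12.2%. Each of the 3 lower LSC calls was lost in some alternative. Nfat5 was at 0.692 without the 10 cells with most of its UMIs and 0.789 as UMIs per cell. Aqp3 was at 0.685 with median of ratios scaling and 0.841 as UMIs per cell. Aqp5 was at 0.764 with LSC* added, which brought in 85 dry eye and 6 control cells not taken as like LSC cells. The Hspa4l ratio in LSC rests on 16 control and 80 dry eye UMIs. Without the 10 cells with most of its UMIs it was 6.65, which rests on very few control UMIs and is given no weight. In Conj cells the 2 of 9 were Hspa4l, higher, and Fxyd4, lower, where the share was 4.55%. In TAC1* cells 7 of 9 passed it, Hspa4l higher and Nfat5, Slc6a6, Sgk1, Aqp3, Aqp5 and Fxyd4 lower, where 30.2% of genes did. These counts describe genes chosen with results known and nothing is read from them.

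**Figure D3:**
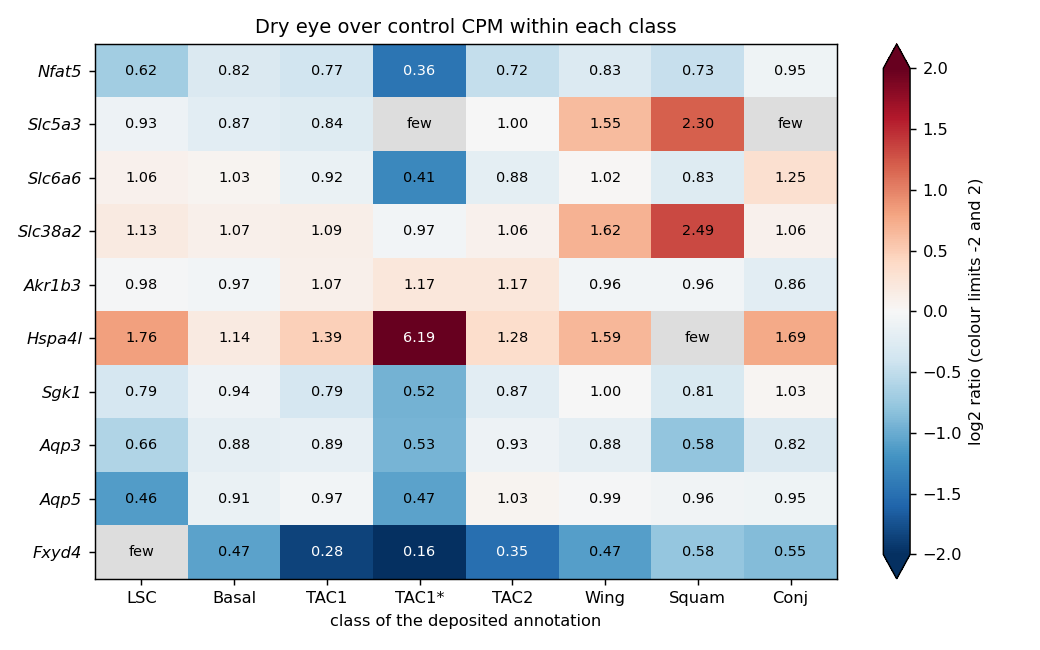
Ratio of dry eye over control CPM for each gene (rows) in each class (columns), printed in the cell and coloured by its log2 value, with red for higher and blue for lower in dry eye. Grey cells marked few had under 50 UMIs over both libraries. The Fxyd4 row is blue in all 7 classes counted, and within the Slc38a2 row the darkest red is Squam at 2.49.

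The TAC1* class had 133 control and 473 dry eye cells, and each gene was set beside its TAC1 level in the 2 libraries, with no test of the difference between them. In control, TAC1* over TAC1 was 1.03 (0.962 to 1.11) for Slc6a6, 1.08 (1.03 to 1.15) for Aqp3, 1.25 (1.21 to 1.29) for Aqp5 and 1.19 (0.962 to 1.47) for Nfat5. In dry eye the same quotients were 0.463 (0.437 to 0.490), 0.637 (0.612 to 0.663), 0.613 (0.598 to 0.628) and 0.569 (0.475 to 0.678). Sgk1 likewise had 1.03 (0.891 to 1.20) in control, beside 0.677 (0.607 to 0.753) in dry eye. Akr1b3 did not show this, with quotients of 1.20 (1.04 to 1.39) and 1.31 (1.21 to 1.42). For Slc38a2 and Fxyd4 the dry eye quotient was also the lower one, but the intervals of the 2 libraries overlapped. Slc38a2 had 1.16 (1.06 to 1.27) beside 1.03 (0.974 to 1.08), and Fxyd4 0.567 (0.401 to 0.782) beside 0.330 (0.212 to 0.496). The Fxyd4 values rest on 41 and 28 TAC1* UMIs, and the overlap does not show that its quotient was unchanged. Hspa4l was at 0.542 (0.141 to 1.49) in control, on 4 UMIs, and at 2.41 (1.78 to 3.28) in dry eye.

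Within the dry eye library, each starred class was set beside the class of the same name. LSC* had 85 cells there, under the 100 required for ratios of dry eye over control, and no minimum of UMIs was set. Hspa4l was higher in all 5 starred classes, from 1.80 (1.49 to 2.16) in TAC2* to 8.36 (3.78 to 18.3) in Squam*, where 14 UMIs were counted. Akr1b3 was higher in all 5 as well, at 4.67 (4.18 to 5.21) in LSC*, 1.98 (1.88 to 2.08) in Squam*, 1.59 (1.55 to 1.63) in Wing*, 1.31 in TAC1* and 1.23 in TAC2*. Nfat5 was lower in all 5, from 0.569 in TAC1* to 0.813 (0.696 to 0.947) in TAC2*. Fxyd4 was at 0.170 (0.132 to 0.216) in Wing*, 0.324 in Squam*, 0.330 in TAC1* and 0.503 in TAC2*, and at 3.36 (1.42 to 8.17) in LSC* on 14 and 11 UMIs. Slc6a6 was at 0.0621 (0.0490 to 0.0777) in LSC*, where its 48.2 CPM stood against 776 CPM in LSC, and at 2.45 in Squam*, with 89 UMIs there. Aqp5 was at 3.67 (3.48 to 3.87) in LSC* and below 1 in the other 4 starred classes. LSC* was led by S100a8 and S100a9 and had none of the limbal markers among its leading genes, so LSC* and LSC are not taken as like cells.

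**Figure D4:**
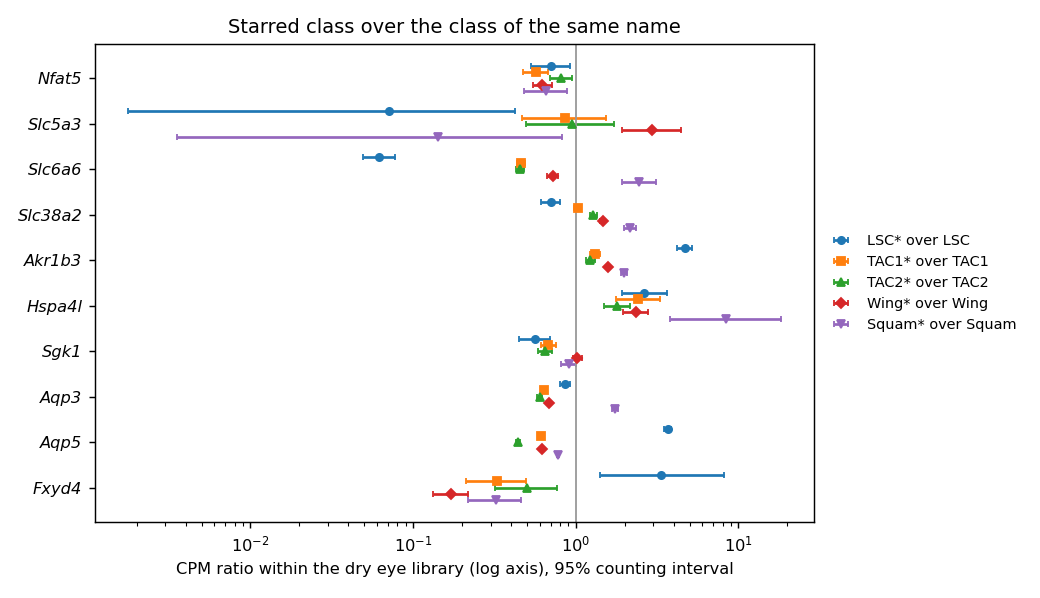
CPM of each gene in a starred class over that in the class of the same name, within the dry eye library, on a log axis with exact 95% counting intervals. LSC* held 85 cells, and no minimum of UMIs was set. Hspa4l and Akr1b3 lie to the right of 1 for all 5 starred classes and Nfat5 to the left, while the wide Slc5a3 intervals in LSC* and Squam* rest on 1 UMI each in the starred class.

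Other genes of these pathways were taken from 10 lists with 141 distinct genes, of which 106 were counted. Apart from the 10 genes above, 14 of the 96 others were past 1.5-fold upward and 2 downward. Over all 13100 genes counted, 6.87% were upward and 5.02% downward, the shares to set beside each list count below. In the list of FXYD proteins and sodium pump subunits, 7 genes were counted, with 2 upward and 1 downward and a median log2 ratio of 0.42. Fxyd4 was the gene downward. Fxyd3, a related pump regulator of epithelia, had 573 CPM in control and 765 CPM in dry eye, which gave 1.34 (1.33 to 1.35), and its level in Wing* was 1486 CPM beside 631 CPM in Wing cells of the same library. The beta subunits Atp1b1 and Atp1b3 were at 1.43 and 0.869, at very unlike levels. Atp1b1 had 1.11 CPM in control and 1.58 CPM in dry eye, and Atp1b3 had 295 and 257 CPM. Fxyd2 was upward at 17.0 (9.51 to 33.3) on 12 and 220 UMIs, of which Wing* cells held 178, and Fxyd5 at 3.87 (2.83 to 5.38) on 50 and 209 UMIs.

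Among aquaporins 4 were counted and 0 were past the threshold in either direction, with a median log2 ratio of -0.09: beside Aqp3, Aqp5 and Aqp2, Aqp11 had a ratio of 1.13 (0.800 to 1.60). Of 12 genes of osmolyte transport and synthesis, 1 was upward and 0 downward, with a median of -0.03. The gene upward was Isyna1, which makes myo-inositol phosphate from glucose phosphate, at 8.90 and 14.0 CPM and a ratio of 1.57 (1.48 to 1.66), and Slc1a5, an exchanger of neutral amino acids, followed at 1.44. Lowest in that list was Cdo1, an enzyme on the route from cysteine to taurine, at 518 and 354 CPM and a ratio of 0.684 (0.678 to 0.691), with 0.499 (0.488 to 0.510) in Squam and 0.944 (0.923 to 0.966) in Basal cells. Next lowest was Csad, the enzyme that follows Cdo1, at 0.850. Of 16 genes of tonicity signalling and chaperones, Hspa4l was the 1 upward and 0 were downward, with a median of 0.02. The lowest there were Hspa1a, an inducible heat shock protein, at 0.700 (0.689 to 0.711) and the kinase Map2k6 at 0.754, and the co-chaperone Dnajb1 was at 1.25 (1.22 to 1.28). The 5 volume-regulated anion channel subunits had 0 genes past the threshold and a median of 0.03, from Lrrc8b at 0.916 and Lrrc8a at 1.02 to Lrrc8d at 1.15 and Lrrc8c at 1.37.

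Of 12 WNK kinases and cation-chloride cotransporters 1 was upward, Slc12a7 at 1.75 (1.44 to 2.14), and 0 downward, with a median of -0.05. Slc12a4 followed at 1.43, and Slc12a9 was lowest at 0.742. Slc12a2, the cotransporter that loads epithelial cells with chloride, was at 235 and 209 CPM, a ratio of 0.893 (0.881 to 0.905). Of 13 sodium channel, chloride channel and exchanger genes 3 were upward, Clca2 at 2.04, Clca3a2 at 1.95 and Slc26a4 at 19.8 on 7 and 150 UMIs, and 1 downward, Clca3a1 at 0.444 on 75 and 36 UMIs, with a median of 0.22. Clcn3 was next lowest at 0.824. Of 11 glucocorticoid-induced genes 0 were upward and 1 downward, Tsc22d3 at 86.5 and 49.2 CPM and a ratio of 0.570 (0.556 to 0.584), with a median of -0.12. Fkbp5, a chaperone of that list, was at 0.761 (0.734 to 0.788), and Cebpd and Dusp1 were highest at 1.26 and 1.25. The list of Atf4 targets held Atf4 itself beside genes of the amino acid response, Slc38a2 among them. Of its 13 counted genes 3 were upward and 0 downward, with a median of 0.44. Ddit3 and Slc3a2 were lowest at 0.849 and 1.07, and Atf5 and Slc7a5, both upward, were each at 1.67. Asns, which makes asparagine, was at 5.65 and 16.1 CPM, a ratio of 2.85 (2.66 to 3.05), and in Squam cells at 5.21 (4.21 to 6.50). Of 19 genes of dissociation and immediate early response, 4 were upward (Socs3 at 8.18, Fosl1 at 3.70, Fosb at 1.91 and Ier3 at 1.57) and 0 downward, with a median of 0.11. Hspa1a and Fosl2 were lowest there, at 0.700 and 0.850, while Fos and Jun had ratios of 0.976 and 0.998. The part of tissue dissociation in any of these values was not tested.

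**Figure D5:**
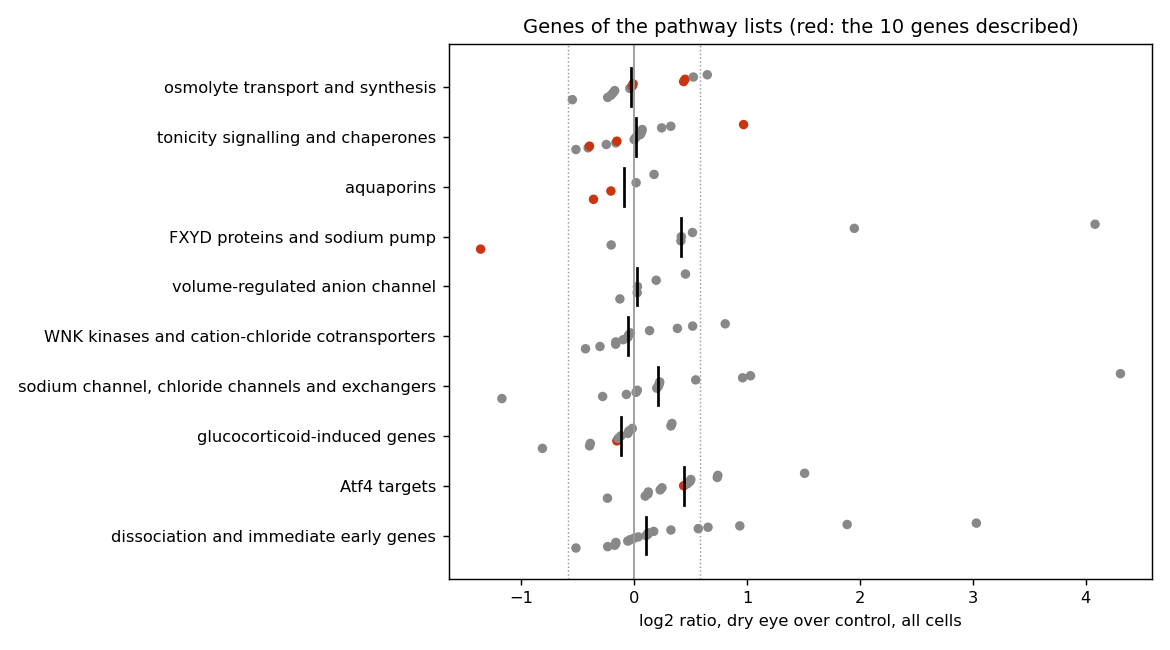
Log2 ratio of dry eye over control for each counted gene of the 10 lists, with the 10 genes described here in red, other genes in grey and the median of each list as a black bar. Dotted lines mark 1.5-fold. Fxyd4 stands apart at the left of its list, and Fxyd2 and Slc26a4 at the right rest on 12 and 7 control UMIs.

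For each of the 10 genes, the genes with the most similar levels were found as Pearson's r of log2(CPM + 1) over 19 class-by-library profiles, among 10838 genes with at least 300 UMIs. These profiles share libraries and depth, and r is given as a description with no test. Nfat5 was most like Tsc22d3 (r of 0.97), Bace1 and Zfp458, and Slc6a6 was most like Mir205hg, Sema5a and Fjx1, all at 0.99. Slc38a2 was followed by Flywch2, Pmp22 and Flna at 0.95 to 0.96, Akr1b3 by Glrx, Anxa7 and Lad1 at 0.95 to 0.96, and Hspa4l by Ak6, Hif1a and Synpo at 0.94 to 0.95. For Slc5a3 they were Vsig8, Vill and Lrrc8c at 0.90 to 0.92. Aqp3 was nearest to Hspa1a, Fbxo9 and Dlg2 at 0.93 to 0.94, Aqp5 to Chrnb1, Ezr and Plekhg1 at 0.96, and Fxyd4 to Fbrsl1, Rasl11b and Sh3tc2 at 0.88 to 0.91. Sgk1 had the weakest likeness, with Mks1, Ganc and Lncpint at 0.79 to 0.80. Among the 10 genes themselves, r was highest for Nfat5 and Slc6a6 at 0.85 and lowest for Slc6a6 and Aqp5 at -0.82.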

How the data were processed

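UMI counts per gene and cell were deposited by the authors as raw whole numbers, with a table giving the library and class of each cell. Cell Ranger 6.0.1, Seurat 4 and the build mm10 appear, per the submitters' processing notes, without their roles. The sources used here do not give the filters on cells or the way cells were classed.

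Counts were summed per library or class and divided by their total to give CPM (Python 3.11.15, NumPy 2.4.6, SciPy 1.17.1, pandas 2.3.3). Ratios had exact 95% Clopper-Pearson intervals from the split of both counts, and levels exact Poisson intervals. Eyes were pooled, so cells are no replicates, the intervals take in only counting error, and no p-value is given. For ratios of dry eye over control, genes needed 100 UMIs over all cells or 50 within a class, and classes 100 cells in each library. Quotients of 2 classes within a library used classes with at least 50 cells in it and had no minimum of UMIs. Free RNA was not removed and no doublet caller was run on the deposited counts. Shares of cells used cells thinned to 3000 UMIs. The calculation was tested on simulated counts with known ratios.

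The 10 genes and the lists were chosen with earlier results of these data known. Named by rule were these 10 genes, up to 2 highest and 2 lowest of each list, all counted sodium pump, FXYD and aquaporin genes, and the 3 most alike genes of each. Some items that the rule covers are not reported here. Slc12a2, Clca3a2, Fosb, Ier3, Slc7a5, Fos, Jun, Mrps6 and values within classes of list genes were chosen after their values were seen. Coordinates come from GENCODE vM21 and promoters from RefSeq.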

Additional observations from a re-analysis of the deposited data

Results flagged for a closer look

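For 3 genes the ratio of dry eye over control lay above 1 in some classes and below 1 in others, with intervals of counting error that did not reach 1. The difference between classes was not tested, since each class has 1 control and 1 dry eye library. Slc6a6 was above 1 in Basal cells at 1.03 and in Conj cells at 1.25, and below 1 in TAC1 at 0.915, TAC2 at 0.877, Squam at 0.834 and TAC1* at 0.409. Akr1b3 was above 1 in TAC2 and TAC1* cells, at 1.17 in both, and below 1 in Wing at 0.965, Squam at 0.963 and Conj at 0.861. Aqp5 was above 1 in TAC2 cells at 1.03 and below 1 in LSC at 0.463, Basal at 0.913, TAC1 at 0.966, Wing at 0.987, Squam at 0.955, Conj at 0.947 and TAC1* at 0.475. The median ratio over all genes counted was itself 0.908 in Wing and 0.873 in Squam cells. The Akr1b3 and Aqp5 ratios in these 2 classes lay above that median, and the Slc6a6 ratio in Squam lay below it.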

How the results depend on the processing

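No paired analysis was possible because each group has 1 library. The Hspa4l ratio of 1.96 was 1.52 without starred classes, 1.46 at the control mix of classes, 1.72 as a mean over cells and, with alternatives chosen after seeing the data, 2.16 in cells with at least 10000 UMIs and 2.25 as UMIs per cell. The Fxyd4 ratio of 0.390 was 0.434 without starred classes, 0.476 at the control mix of classes, 0.375 without the 5% of cells with most UMIs, 0.410 with median of ratios scaling and, chosen after seeing the data, 0.405 without Wing cells, 0.356 without Squam cells and 0.448 as UMIs per cell. Genes past 1.5-fold numbered 1430 higher and 1119 lower with a minimum of 20 UMIs, 519 and 320 with 500 UMIs, and, chosen after seeing the data, 587 and 235 where the interval bound had to pass, with 436 lower without starred classes. List genes numbered 7 higher and 1 lower with 500 UMIs, and 1 lower by the interval bound, also chosen after seeing the data. Over 14 alternatives Fxyd4 stayed past the threshold in 14 and Hspa4l in 13. Slc5a3 came past it in 3, at 2.59 with the lowest class level subtracted, 1.57 as UMIs per cell and 1.54 in cells with at least 10000 UMIs, and Slc38a2 in 2, at 1.56 and 1.52 under the last 2 of these. The lowest alternative for Slc5a3 was 1.17, without Wing cells, which was chosen after seeing the data. For Slc38a2 it was 1.12, with the lowest class level subtracted. Nfat5 crossed 1, at 1.02, with the lowest class level subtracted, Sgk1 at 1.03 as UMIs per cell, Slc6a6 in 5 alternatives and Akr1b3 in 3. Within classes these calls were lost: Nfat5 in LSC, at 0.692 without the 10 cells with most of its UMIs, 0.696 with the lowest class level subtracted and 0.789 as UMIs per cell, Aqp3 in LSC, at 0.685 with median of ratios scaling and 0.841 as UMIs per cell, Aqp5 in LSC, at 0.764 with LSC* added, Slc38a2 in Wing at 1.498 with the lowest level subtracted, Hspa4l in Wing at 1.44 without the 5% of cells with most UMIs and Fxyd4 in Squam at 0.668 with median of ratios scaling. The LSC* cells added for Aqp5 were 85 in dry eye and 6 in control and are not taken as like LSC cells. Hspa4l in TAC1* gave no value without its top cells. The cause of these changes was not tested. At a minimum of 1000 UMIs, 26 of the 30 most alike genes were shared. None of the 3 reported for Slc5a3 was among the shared genes. In their place stood Cacna1a, Id3 and Cdh13, at 0.86 to 0.89. Slc5a3 and Hspa4l, with under 1000 control UMIs each, are the genes most limited by depth.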
